A study of Mus musculus with 4 samples.

Results

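The postsynaptic scaffolds examined here are the 10 genes Dlg1, Dlg2, Dlg3, Dlg4, Shank1, Shank2, Shank3, Homer1, Homer2 and Homer3. They were chosen by name, and their members are the non-control probes that the array annotation assigns to these symbols, 24 of the 55681 probes on the array. Of these, 23 entered the test, and 1 Shank1 probe was left out because its spot was marked by the scanner software on 1 array. The RNA came from corticohippocampal lysate of C57BL/6 male mice aged 8 weeks, which was incubated for 3 hours with beads carrying either CPEB2 IgG or control IgG. No allele or treatment other than the antibody differed between the groups. RNA bound to the beads was labelled with Cy3 and hybridised to 1-colour microarrays, 2 for CPEB2 IgG and 2 for control IgG, and arrays of the same number form experiment 1 and experiment 2. The description of these CPEB2 IgG arrays mentions CPEB3, while the titles and the treatment protocol give CPEB2, which is used here.

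CPEB2 belongs to a family of RNA-binding proteins that recognise the cytoplasmic polyadenylation element (CPE) in 3'-UTRs and control translation. The postsynaptic density of excitatory synapses is built from layered scaffolds. The Dlg genes encode SAP97 (Dlg1), PSD-93 (Dlg2), SAP102 (Dlg3) and PSD-95 (Dlg4), which hold glutamate receptors at the membrane. Shank proteins are the deeper master scaffolds, and Homer proteins link Shank to group I metabotropic glutamate receptors and to inositol trisphosphate receptors. Homer1 is made as long forms, which multimerise, and as a short activity-induced form that competes with them.

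The 4 arrays had 68.4% to 74.1% of spots well above background and no saturated spot. The control IgG arrays lay at neighbouring positions of the slide and so did the CPEB2 IgG arrays, so that position and antibody cannot be told apart. Input RNA was not analysed here. Markers of neurons were well above background on all 4 arrays for 9 of 9 genes tested, and their summed signal ranged from 133378 to 135474 on the CPEB2 IgG arrays and from 128383 to 130012 on the controls. Those of astrocytes (5 of 5), oligodendrocytes (5 of 5), microglia (5 of 5) and endothelial cells (4 of 4 tested, of 5 on the array) were also well above background on all arrays. In neurons 0 of 9 were called. In oligodendrocytes 2 of 5 were lower (Mobp and Mag). In microglia 1 was higher (P2ry12) and 2 lower (Aif1 and Csf1r), and in endothelial cells 1 was higher (Cdh5). Over all named genes, 21.2% were called higher and 20.4% lower by their brightest probe. Of the 5 astrocyte markers, 2 were called higher (Slc1a3 and Gja1) and 2 lower (Aldh1l1 and Gfap). Their summed signal ranged from 29937 to 32178 on the CPEB2 IgG arrays and from 14669 to 19262 on the controls, and most of it on the CPEB2 IgG arrays was Slc1a3 (28729 and 26889, against 3302 and 2133). The part of the cell types in the results was not tested. Cpeb2, the mRNA of the precipitated protein, was higher with CPEB2 IgG by 2.89 on the log2 scale (limma adjusted p = 0.00543).

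Probes of the same gene are numbered from 5' to 3' by their mm9 position in the array annotation. The stretches below are the last 30 of the 60 bases of the probes that carry the contrasts within Homer1 and Shank3, and of the Shank2 probe whose 2 experiments moved in opposite directions. Capitals mark G and C, which differ in number between the probes compared.

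Homer1 probe 3 of 5 (variant S, chr13:94126009-94126068, plus strand): aCattCaattCaGCaatCatGattaaGtaa
Homer1 probe 4 of 5 (variant L, chr13:94157507-94157566, plus strand): aaaCtCaCtGCaGCCCtGCtGGaGtCCaCt
Homer1 probe 5 of 5 (variant L, chr13:94174815-94174874, plus strand): ttataaCtatGaaatCttGtaCaaaaGCaa
Shank3 probe 1 of 2 (chr15:89388668-89388727, plus strand): CGCGttGGCCaCCGCatGaaCatCGaGCGt
Shank3 probe 2 of 2 (chr15:89390449-89390508, plus strand): aatttGGGtttttaaCtttaCaGGGtCaGt
Shank2 probe 2 of 2 (chr7:151610225-151610284, plus strand): GaGaGaGGaaGaGGGaGaGtGaGGGaGaGt

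Of the 23 probes tested, 6 were higher with CPEB2 IgG, 1 was lower and 16 did not pass the threshold (limma, Benjamini-Hochberg adjusted p under 0.05 over all 41138 probes tested). The 6 were 1 probe each of Dlg2, Dlg3, Homer1, Homer2, Homer3 and Shank3, and the lower one was a Shank1 probe. The Homer3 probe passed the filter on dim probes only through the CPEB2 IgG arrays, where it is high, and without it 5 of 22 probes (22.7%) were called higher. Over all probes tested, 12.7% were called higher and 14.8% lower, beside 26.1% and 4.35% of the scaffold probes. Over all probes, 5228 calls were higher and 6095 lower, and median centring turned this split to 7500 and 5594. Among probes well above background on all 4 arrays, 6 of 21 scaffold probes were called higher (both Dlg2 probes and those of Dlg3, Homer1, Homer2 and Shank3) against 17.9% of 35366, and 1 lower (Shank3 probe 1 of 2) against 21.2%. By gene, 6 of 10 had a probe called higher and 1 of 10 a probe called lower, against 19.7% and 19.6% of all named genes. Homer3 was among the 6 only through its dim probe, and without that probe 5 of 10 remained. A gene with several probes has more chances in this count, and 8 of the 10 had more than 1. By the brightest probe of each gene, 4 of 10 were called higher and 0 lower, against 21.2% and 20.4% of all named genes. The median log2 fold change was 0.04 over the 23 probes and -0.20 over all probes tested. The number of arrays limits the precision, and an exact two-sided permutation test of 2 arrays against 2 cannot go below p = 0.333 for a single probe. With a single array left out, 1 group holds a lone array. Fewer scaffold probes were then called higher, and fewer probes over the whole array were too. The 6 probes called higher over all probes tested kept their sign. Their lowest log2 differences were 1.17 (Dlg2), 0.95 (Dlg3), 1.87 (Homer1), 0.90 (Homer2), 1.43 (Homer3) and 1.93 (Shank3).

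**Figure D1:**
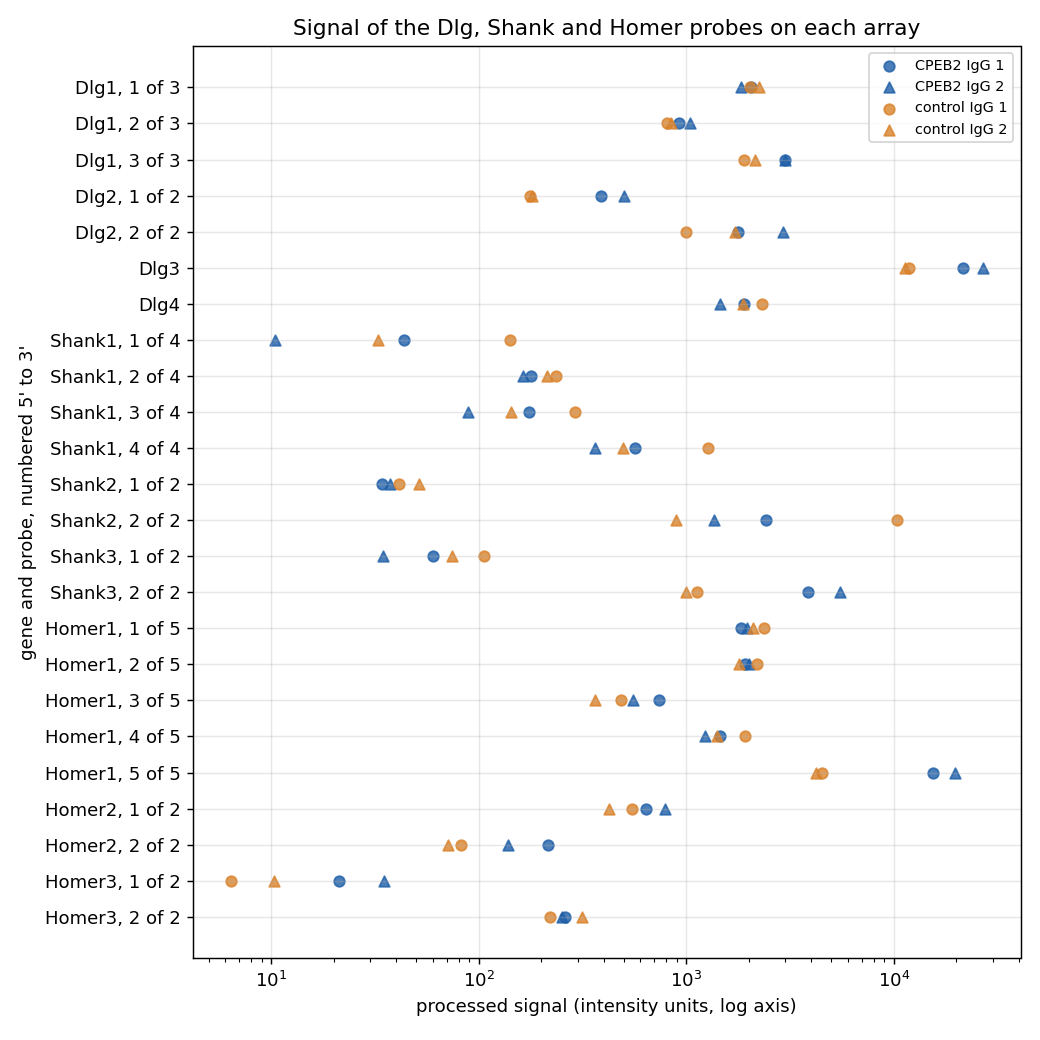
Processed signal (intensity units, log axis) of the 24 scaffold probes on each of the 4 arrays, with CPEB2 IgG in blue, control IgG in orange, circles for experiment 1 and triangles for experiment 2. The blue symbols of Homer1 probe 5 of 5 and Shank3 probe 2 of 2 lie to the right of the orange ones, and Shank2 probe 2 of 2 has its highest signal on control IgG array 1.

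**Figure D2:**
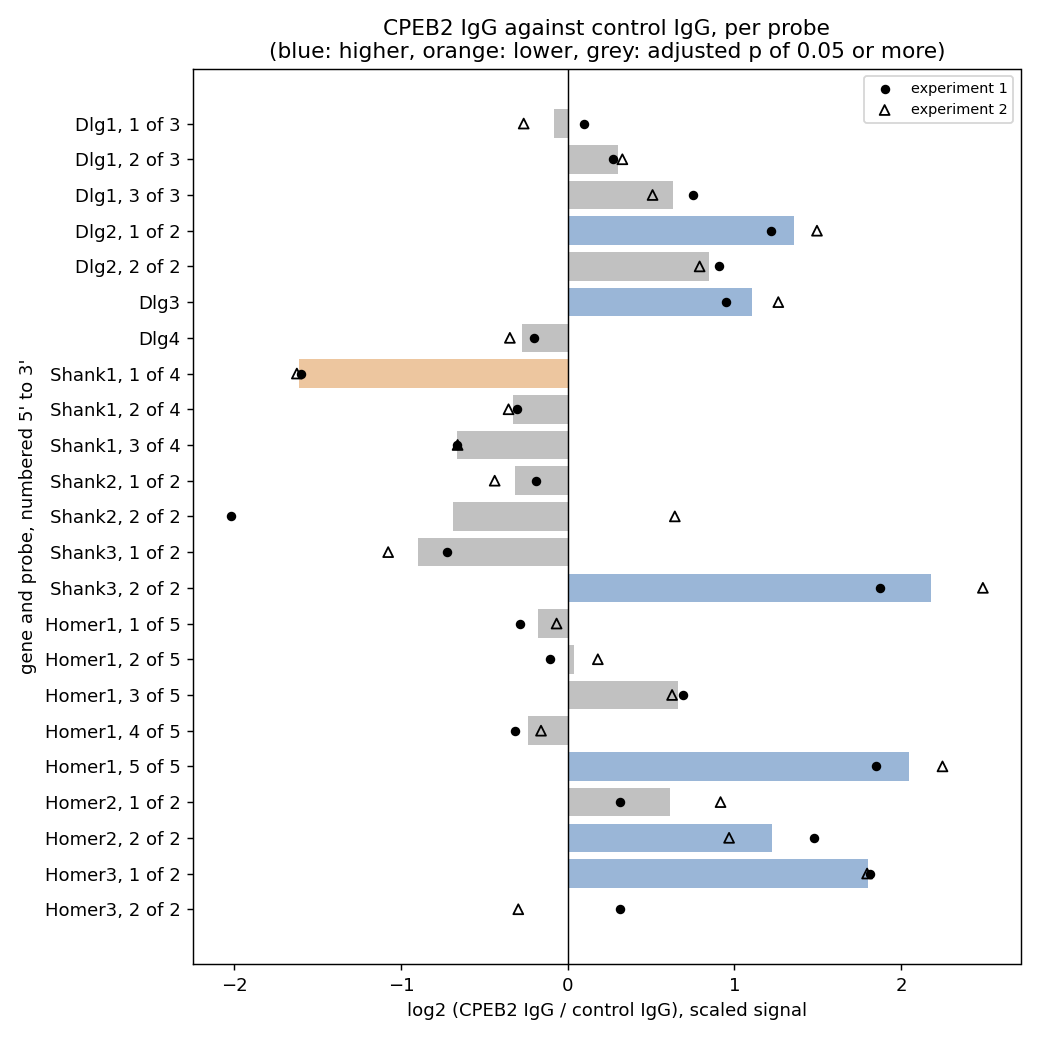
Log2 ratio of CPEB2 IgG to control IgG for the 23 probes tested, with bars for the mean of the 2 experiments, circles for experiment 1, triangles for experiment 2 and colours for the limma call. The experiments had the same sign for 19 probes and opposite signs for 4.

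Among the Dlg genes, 2 of 7 probes were called higher and none lower. Dlg3, which encodes SAP102, the family member of developing synapses, had 1 probe (chrX:98013667-98013726). Its signal was 21584 and 26806 on the CPEB2 IgG arrays and 11855 and 11346 on the control IgG arrays. Both CPEB2 IgG arrays lay above both control IgG arrays, by 1.11 ± 0.22 on the log2 scale (SD, n = 2, 2.15-fold, limma adjusted p = 0.0406). The call was lost when probes were centred within bins of GC content (0.88 on the log2 scale, limma adjusted p = 0.0571), with the percentile taken over probes well above background on all arrays (1.00, 0.0574), and without CPEB2 IgG array 2 or either control array.

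Dlg2, which encodes PSD-93, had 2 probes on chromosome 7. Probe 1 of 2 (chr7:99595368-99595427) gave 389 and 502 with CPEB2 IgG against 177 and 181 with control IgG, a log2 difference of 1.36 ± 0.20 (SD, n = 2, 2.56-fold, limma adjusted p = 0.0228). This call was lost without CPEB2 IgG array 2 or either control array. Probe 2 of 2, which lies 1737 bases further 3', gave 1773 and 2906 against 1000 and 1706. Its log2 difference was 0.85 ± 0.08 (SD, n = 2) with a limma adjusted p of 0.0757. The probes did not differ from each other beyond the spread (limma adjusted p = 0.245).

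Dlg1 (SAP97) had 3 probes on chromosome 16, and none passed the threshold. The most 3' of them gave 2993 and 2986 with CPEB2 IgG against 1886 and 2132 with control IgG, a log2 difference of 0.63 ± 0.17 (SD, n = 2, limma adjusted p = 0.156). The other two had log2 differences of -0.08 and 0.30. Probe 1 of 3 lies 99954 bases upstream of the most 3' probe and is annotated to an Ensembl transcript of its own. Dlg4, which encodes PSD-95, gave 1891 and 1456 with CPEB2 IgG against 2306 and 1882 with control IgG. The groups overlapped on the scaled values, and the log2 difference was -0.27 ± 0.10 (SD, n = 2, limma adjusted p = 0.510). This sign turned when probes were centred within GC bins.

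Homer1 had the most probes, 5 along 58220 bases of chromosome 13. Probe 5 of 5, the most 3', gave 15343 and 19664 with CPEB2 IgG against 4505 and 4205 with control IgG. Both CPEB2 IgG arrays were above both controls by 2.05 ± 0.28 on the log2 scale (SD, n = 2, 4.14-fold, limma adjusted p = 0.00942). Probe 4 of 5, annotated to the same variant L and 17308 bases upstream, gave 1458 and 1231 against 1922 and 1398, a log2 difference of -0.24 ± 0.11 (SD, n = 2).

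The probes annotated to variant S, the short form, did not pass the threshold. Probe 3 of 5 gave 741 and 553 with CPEB2 IgG against 485 and 364 with control IgG, a log2 difference of 0.66 ± 0.05 (SD, n = 2, limma adjusted p = 0.137). Probes 1 and 2 of 5 had log2 differences of -0.18 and 0.04. The difference between probe 5 of 5 and each other probe was tested itself, within arrays, over 7013 pairs of probes of the same gene. It was 2.29 against probe 4 (limma adjusted p = 0.0204), 1.39 against probe 3 (0.0380), 2.01 against probe 2 (0.0217) and 2.23 against probe 1 (0.0204). Without the replicate block the difference from probe 3 no longer passed (limma adjusted p = 0.0527).

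Shank3, the scaffold that joins the Homer and PSD-95 layers, had 2 probes in the same annotated transcript, 1781 bases apart. Probe 2 of 2, printed on 10 spots, gave 3873 and 5486 with CPEB2 IgG against 1121 and 992 with control IgG. The groups did not overlap, and the log2 difference was 2.18 ± 0.44 (SD, n = 2, 4.54-fold, limma adjusted p = 0.00935). Probe 1 of 2 did not pass the threshold, with 60.4 and 34.6 against 106 and 74.2, a log2 difference of -0.90 ± 0.25 (SD, n = 2, limma adjusted p = 0.0710). The probes differed from each other by 3.08 on the log2 scale (limma adjusted p = 0.0204).

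**Figure D3:**
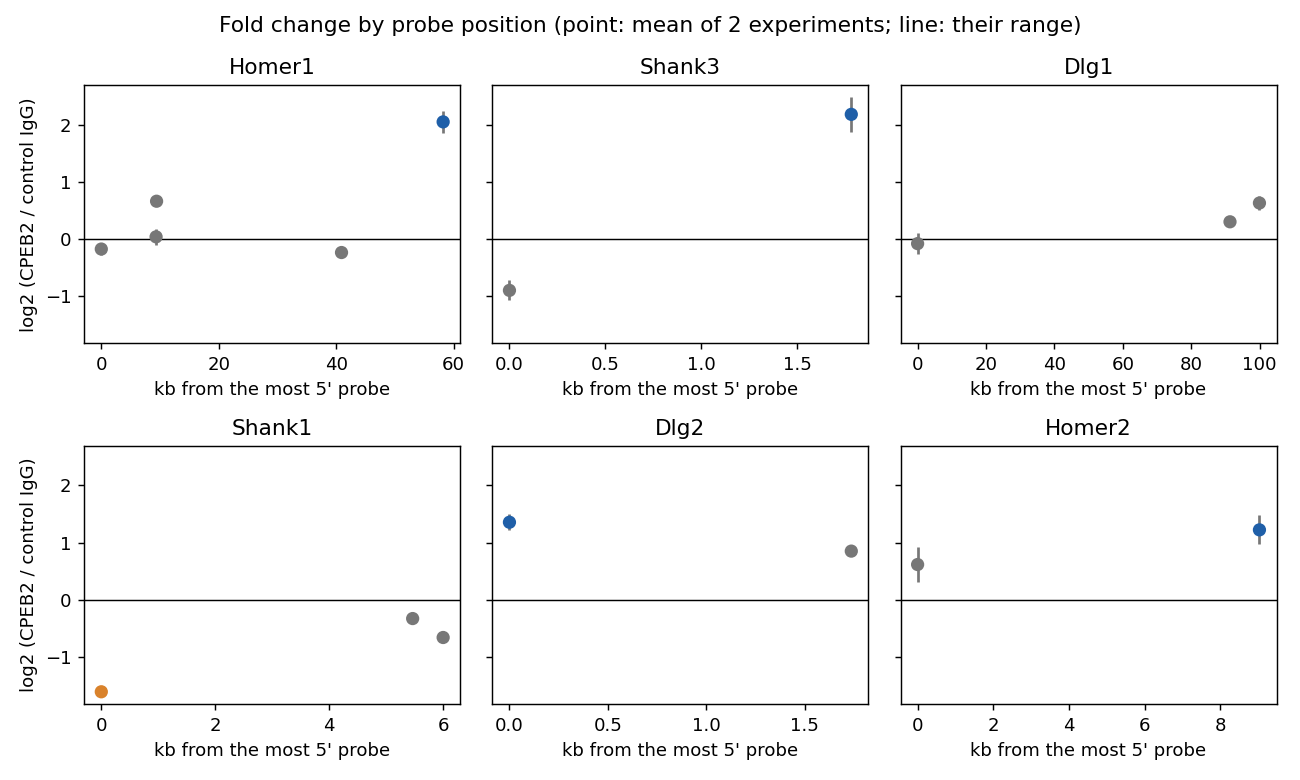
Log2 ratio of CPEB2 IgG to control IgG against the distance in kb from the most 5' probe of each of 6 genes, with points for the mean of the 2 experiments, lines for their range, blue for probes called higher, orange for lower and grey for the others. In Homer1 and Shank3 the most 3' probe stands at 2.05 and 2.18, while in Dlg2 the 5' probe is the higher one. The Dlg2 difference was not called (limma adjusted p = 0.245). Homer3, whose dim 5' probe is the higher one, and Shank2 are not drawn.

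In all, 7 of 13 differences between probes of a scaffold gene passed the limma threshold, against 25.6% of the 7013 pairs on the array. The 4 Homer1 differences share probe 5 of 5 and are not independent, and the Homer3 difference includes the dim probe. Among probes well above background on all 4 arrays, 5 of 11 differences passed, 4 of Homer1 and 1 of Shank3. The share of all pairs that passed with this filter was not counted, so this count cannot be set against the 25.6%. The downstream probe had the higher log2 fold change in 9 of 13 pairs (69.2%), near the 70.8% among 6833 pairs of all named genes on the same chromosome and strand within 3 Mb. The GC content of the probes also moved with the calls. It was 35% to 45% in the 6 probes called higher (median 35.8%) and 35% to 60% in the other 17 (median 43.3%), beside medians of 36.7% for all probes called higher and 45% for all others tested. Centred within GC bins, the difference of Homer1 probe 5 from probe 4 was 1.57 (limma adjusted p = 0.0273), beside 2.29 without it. The Shank3 difference was 2.71 (limma adjusted p = 0.0217), beside 3.08. Homer1 probes 5 and 3 have the same GC content, and their difference was 1.39 with and without this centring (limma adjusted p = 0.0367 and 0.0380). The part of GC content or probe position in these differences was not tested.

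Homer2, a long-form Homer, had 2 probes on the minus strand of chromosome 7. Probe 2 of 2, the more 3', gave 215 and 137 with CPEB2 IgG against 81.9 and 71.4 with control IgG, a log2 difference of 1.22 ± 0.36 (SD, n = 2, 2.33-fold, limma adjusted p = 0.0347). Probe 1 of 2 gave 640 and 789 against 545 and 424, a log2 difference of 0.62 ± 0.43 (SD, n = 2, limma adjusted p = 0.193). The difference between the probes was not beyond the spread (limma adjusted p = 0.303). The call of probe 2 was lost with the percentile taken over probes well above background on all arrays (1.12, limma adjusted p = 0.0526), and without CPEB2 IgG array 1 or either control array. The Homer2 probe 2 was the only one of the 24 scaffold probes that held TTTTAT, read on the probe strand, a motif present in 3.69% of all probes. None held TTTTAAT, present in 0.912% of all probes. These are the letters of the CPE within 60 bases, and the 3'-UTRs themselves were not analysed here.

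Homer3 had 2 probes on chromosome 8, and the called one was dim. Probe 1 of 2 gave 21.2 and 35.1 with CPEB2 IgG against 6.38 and 10.3 with control IgG, where it was not well above background on either array. The log2 difference of probe 1 from these control signals was 1.80 ± 0.01 (SD, n = 2, limma adjusted p = 0.0109). Set against the lowest signal well above background on each control array, it was at least 2.20-fold higher with CPEB2 IgG. This bound was not tested. Since this probe entered the test only through the CPEB2 IgG arrays, its call is given as a description. After normexp background correction its log2 difference was 0.41 (limma adjusted p = 0.110). Probe 2 of 2 gave 259 and 252 against 221 and 315, with a log2 difference of 0.01 ± 0.43 (SD, n = 2, limma adjusted p = 0.989). In RefSeq (GRCm38.p6) the Homer3 gene overlaps Ddx49.

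Shank1 had 4 probes on chromosome 7, and 1 of the 3 tested was called lower with CPEB2 IgG. Probe 1 of 4, annotated to an Ensembl transcript of its own, gave 43.8 and 10.4 with CPEB2 IgG against 141 and 32.7 with control IgG, and was well above background on 1 of 2 CPEB2 IgG arrays. Its log2 differences within the experiments were -1.60 and -1.63 (limma adjusted p = 0.0139), but the groups overlapped. The call held under 7 of 14 alternatives. Without the replicate block probe 1 was not called (limma adjusted p = 0.277), nor with normexp (log2 difference -0.56, limma adjusted p = 0.0775). With single arrays left out, its log2 difference ranged from -2.65 to -0.58. Probes 2 and 3 of 4 had log2 differences of -0.33 and -0.66 and were not called. Probe 4 of 4 gave 568 and 363 with CPEB2 IgG against 1268 and 495 with control IgG, with its spot marked on control IgG array 1. With marked spots kept its log2 difference was -0.75 (limma adjusted p = 0.137).

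Shank2 had no probe past the threshold. Probe 2 of 2 gave 2405 and 1365 with CPEB2 IgG against 10347 and 889 with control IgG, so that it was lower in experiment 1 (-2.02) and higher in experiment 2 (0.64). Its mean log2 difference was -0.69 ± 1.88 (SD, n = 2, limma adjusted p = 0.466). It shares a stretch of 15 bases with 3 other probes on the array, none of them of Shank2. Of the 24 scaffold probes, 7 share such a stretch with a probe of another annotation, among them 3 of the called ones, Homer1 probe 5 of 5, Homer3 probe 1 of 2 and Shank1 probe 1 of 4, each with 1 other probe. Probe 1 of 2 gave 34.2 and 37.4 against 41.4 and 51.5, a log2 difference of -0.31 ± 0.18 (SD, n = 2).

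The study's thresholds on fold and signal were applied without a test and without the CPE criterion. A gene passed when any probe exceeded 1.5-fold on the mean of the experiments and a signal of 1000 on a CPEB2 IgG array. Of the 7 scaffold genes with such a signal, 5 passed (Dlg1, Dlg2, Dlg3, Homer1 and Shank3), against 47.7% of 7033 named genes. Dlg1 did not pass, which left 4, with quantile normalization, without scaling, with the percentile over probes well above background on all arrays, or when each experiment had to exceed 1.5-fold (Dlg1 was 1.42-fold in experiment 2). When the probes of a gene were averaged, 3 passed (Dlg2, Dlg3 and Shank3) and Homer1 did not.

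Genes of proteins that bind or resemble the scaffolds were described by the brightest probe of each gene. Over all named genes, 21.2% were called higher and 20.4% lower in this fit, with a median log2 fold change of -0.11. Of 22 PSD-95 and SAP partners, 6 were higher and 3 lower (median 0.25). Sipa1l1 and Sipa1l3, Rap GTPase-activating proteins of the spine-associated family, were higher by 2.84 and 2.16 on the log2 scale (limma adjusted p = 0.00543 and 0.00568). Cit, the citron kinase, and Dlgap4, a member of the GKAP family that joins PSD-95 to Shank, had log2 differences of -3.45 and -1.41 (limma adjusted p = 0.00543 and 0.0115).

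Of 12 Shank partners, 4 were higher and 2 lower (median 0.37). Cttnbp2, a cortactin-binding protein of spines, and Arhgef7, a Rac and Cdc42 exchange factor also listed for PSD-95, were higher by 2.79 and 2.01 (limma adjusted p = 0.00543 and 0.0106). Sharpin, which binds Shank ankyrin repeats, and Prosapip1 had log2 differences of -1.97 and -0.93 (limma adjusted p = 0.00613 and 0.0325). Prosapip1 gave 145040 and 29148 with CPEB2 IgG against 308513 and 53900 with control IgG, so its groups overlapped.

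Of 16 Homer partners, 6 were higher and 2 lower (median 0.09). Nfatc2, a calcium-regulated transcription factor, and Dab1, the reelin adaptor, were higher by 2.19 and 1.96 (limma adjusted p = 0.00562 and 0.00615). Itpr2, an inositol trisphosphate receptor, had a log2 difference of -1.41 (limma adjusted p = 0.0110). Of 18 other MAGUK genes, 3 were higher and 5 lower (median -0.67). Tjp1 and Lin7c were higher by 3.15 and 1.86 (limma adjusted p = 0.00543 and 0.00787), and Lin7b and Mpp7 had log2 differences of -2.74 and -1.74 (limma adjusted p = 0.00543 and 0.00739). Counting each gene once, 18 of 65 partner and related genes were higher and 12 lower, so genes moved in both directions in each list.

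**Figure D4:**
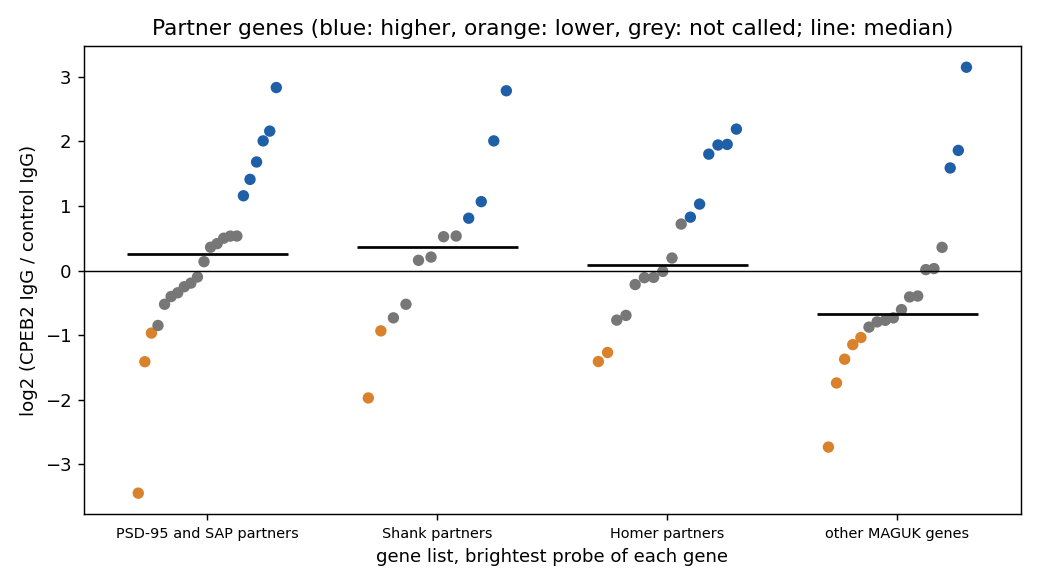
Log2 ratio of CPEB2 IgG to control IgG for the brightest probe of each gene in the 4 lists, with points coloured by the limma call and a line at the median of each list. Each list holds genes on both sides of 0, and the medians run from -0.67 (other MAGUK genes) to 0.37 (Shank partners).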

How the data were processed

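RNA precipitated with CPEB2 IgG or control IgG was measured on 4 Agilent 1-colour arrays. The authors deposited the scanner output of each array, in which Feature Extraction 10.5.1.1 (Agilent) gives intensity values that it background-corrected and that were not normalized between arrays. Positions are those of the array annotation (mm9). Here, control spots and marked spots were left out, which dropped 66 probes, spots of a probe were averaged on the log2 scale of the deposited intensities, and each array was scaled to its 75th percentile. limma 3.58.1 in R 4.3.3 was fitted to 41138 probes well above background on at least 2 arrays, with the experiment as a block, Benjamini-Hochberg adjustment, a threshold of 0.05 and 1 residual degree of freedom. The pairing comes from the methods, in which lysate was divided between the antibodies. Deviations of same-numbered arrays correlated at 0.206. The paper describes the 2 immunoprecipitation experiments as independent. Nothing says that they used separate animals, so p-values may measure technical spread only.

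The fit was run on simulated data with noise drawn from its own fitted variances. That run cannot show whether the assumptions of the fit hold for these arrays. Tables and figures were made with Python 3.11.15, numpy 2.4.6, pandas 2.3.3 and matplotlib 3.10.9. The members and lists were chosen with earlier results of these data known. All probes of the 10 genes are named, with the 2 largest and 2 smallest log2 fold changes of each partner list, and Cpeb2. One gene that this rule names is not reported here. Probe pairs were formed from the brightest probe of a gene and each other probe. Alternatives were other scalings, normexp with an offset of 50 fitted on non-control spots, 8 GC bins, other filters, an intensity trend, no block, and arrays left out. The symbols of 10 of 10 genes matched RefSeq (GRCm38.p6), which was used for names and neighbours only.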

Additional observations from a re-analysis of the deposited data

How the results depend on the processing

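Over all probes tested, the median log2 difference was -0.20, and between -0.31 and 0.04 under other scalings, so fold changes are relative to that shift. Homer1 probe 5 of 5 and Shank3 probe 2 of 2 were called under 16 of 17 alternatives each, the exception being no filter on dim probes. There limma called 0 of 23 scaffold probes higher and 0 lower, as it did over all 55615 probes, although 11 had an unadjusted p under 0.05 (smallest adjusted p = 0.0961). Dlg3 lost its call within GC bins, and Dlg3 and Homer2 with the percentile over detected probes, which left 4 probes called higher. The count called lower was 0 with normexp and without the replicate block. It was also 0 with signals above 1000 and with the brightest probe of each gene, but those fits leave out the Shank1 probe called lower. With single arrays left out and no block, where the lone array is assumed to vary like the others, fewer scaffold probes were called higher. Fewer probes over the whole array were called higher too. Shank2 probe 2 of 2 had a log2 difference of -2.43 without control IgG array 2. With the 2 arrays of an experiment left out, 5 genes passed both thresholds either way, Shank2 in place of Dlg1 in one. A fold above 2 or averaging of probes left 3. Without the replicate block, 5 of 13 probe differences passed, and the share of all pairs was not counted in that fit. Partner genes called lower rose from 12 to 19 with normexp.

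Signs turned in probes that were not called. Dlg1 probe 1 of 3 was 0.15 with median centring, 0.070 within GC bins, and 0.00055 and 0.018 without CPEB2 IgG array 2 and control IgG array 2. Within GC bins, Dlg4 was 0.040, Shank1 probe 2 was 0.17, Shank2 probe 1 was 0.00074, Homer1 probe 1 was 0.14 and Homer1 probe 4 was 0.26. Homer1 probe 1 was 0.050 with median centring. Homer1 probe 2 was -0.10 with quantile normalization, -0.016 without scaling, -0.071 with the percentile over detected probes and -0.08 without control IgG array 2. Homer3 probe 2 was -0.046 without scaling, -0.10 with the percentile over detected probes, -0.028 with normexp, -0.01 without CPEB2 IgG array 1 and -0.28 without control IgG array 1. Shank2 probe 2 ranged from -2.43 to 1.05 with single arrays left out, the latter without control IgG array 1. With either experiment left out, Dlg1 probe 1 ranged from -0.26 to 0.10, Homer1 probe 2 from -0.11 to 0.18 and Homer3 probe 2 from -0.30 to 0.31. The cause was not tested.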
